A study of Mus musculus with 21 samples.

Results

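The comparison is between CH12F3 cells that carry 3 inserted CTCF-binding elements (CBEs) with Iα in place and the line from which they were made. The members were chosen by genotype label alone. They are the 3 libraries of genotype i3CBEc and the 6 of genotype CH12F3NC-delta, called NCdel here, 9 of 21 libraries in the series. CH12F3 cells come from a mouse B-cell lymphoma, make IgM and can be stimulated to switch to IgA. In every cell of both groups the DNA between Sμ and Sα was deleted from the non-coding IgH allele, so that switching was read from the coding allele, and every culture was stimulated with anti-CD40, IL4 and TGFβ for 72 h. The i3CBEc cells also have the 3 CBEs, which the labels give as convergent with the 3′CBEs, the CTCF sites beyond the last constant gene. The labels do not place the insertion in this line, put it downstream of Cγ2a in the matching Iα-deleted line, and do not say whether libraries came from separate cultures or clones. The p-values therefore measure the spread between these libraries, which may be technical.

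Class switching joins a broken Sμ region to a broken downstream switch region, and the enzyme AID starts the breaks by deaminating cytosines, often in the motif AGCT. A deletional join removes the DNA between the breaks and gives a productive switch, whereas an inversional join turns that DNA around and does not. Each acceptor has its own I promoter, and Iα drives the transcript through Sα. Cohesin extrudes chromatin loops, and this extrusion can bring distant switch regions to Sμ. Loops can also stop at CTCF sites of suitable orientation. The comparison asks whether a new CTCF stop in the constant-gene region changes which ends are joined, and how, while Iα still works.

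CSR-HTGTS-seq amplifies from a fixed end next to Sμ, the bait, and reads the DNA joined to it, the prey. One line of a deposited table is 1 junction. The i3CBEc libraries held 3828 junctions (1180 to 1391 each) and the NCdel libraries 11564 (1623 to 2412 each). All positions are on chromosome 12 of mm9, where the bait reads on the minus strand. A prey on the minus strand is thus called deletional and a prey on the plus strand inversional. These names take the orientation of mm9, and whether Sα has that orientation in the i3CBEc cells was not tested. The i3CBEc libraries were all read in run 389, and the NCdel libraries in runs 371, 451 and 490. The effects of run, of a possible difference between clones and of genotype therefore cannot be told apart. The deposited positions of i3CBEc step by 99 bases against the other libraries within an interval between Sγ2a and Sε, from 114521585 to 114526902 in deposited positions. That interval is taken here as the place of the insertion, which the labels do not state for this line. Median read length was 178 to 191 bases in i3CBEc and 198 to 212 in NCdel.

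The sequences below show the bait, the sites to which it was joined and the 2 orientations of a join to Sα. They are the consensus of the deposited reads, written 5′ to 3′, with every AGCT in capitals. AGCT is its own reverse complement, so 1 search covers both strands. The first is the bait at chr12:114664780-114664909, minus strand. The next lines hold 40 bases from the join, at a deletional site of Sα (chr12:114500159-114500198, minus strand, 5 joins in i3CBEc and 6 in NCdel) and at an inversional site (chr12:114500689-114500728, plus strand, 2 joins in i3CBEc and 0 in NCdel). After them come 3 windows, around the most used position of Sα (chr12:114500041-114500091), another often used in i3CBEc (chr12:114500231-114500281) and the most used of Sμ (chr12:114663559-114663609), all minus strand. The most used positions are those with the highest mean of the 2 group shares. The last is a window of the stretch between Sγ2a and Sε that held 4 joins (chr12:114520980-114521030, minus strand), which only 2 reads cover at its thinnest base.
bait: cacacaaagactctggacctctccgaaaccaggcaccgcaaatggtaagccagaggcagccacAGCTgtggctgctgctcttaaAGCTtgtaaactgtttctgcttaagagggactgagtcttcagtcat
deletional Sα prey: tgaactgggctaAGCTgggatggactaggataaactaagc
inversional Sα prey: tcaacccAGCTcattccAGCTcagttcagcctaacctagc
Sα 114500066: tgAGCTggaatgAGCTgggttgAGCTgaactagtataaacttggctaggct
Sα 114500256: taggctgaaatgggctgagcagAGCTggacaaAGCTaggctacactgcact
Sμ 114663584: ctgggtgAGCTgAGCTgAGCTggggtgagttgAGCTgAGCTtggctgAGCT
stretch: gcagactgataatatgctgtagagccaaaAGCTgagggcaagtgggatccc
The Sμ window holds 6 motifs and the first Sα window 3, against 1 in the stretch window. Among preys of at least 51 bases, AGCT stood in the first 51 bases of 83.0% of α joins, 77.1% of μ joins and 25.3% of joins outside IgH in i3CBEc. In NCdel these shares were 82.6%, 77.7% and 24.1%. The α and μ regions were placed by AGCT density in these same reads, so a higher share there than outside follows in part from that choice.

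Joins to Sα were more often inversional with the insertion. Of the joins to the α unit (114492000 to 114508499), 19.9%, 19.1% and 17.6% were inversional in i3CBEc libraries 1 to 3. In NCdel libraries 1 to 6 the shares were 1.79%, 1.51%, 2.57%, 3.41%, 3.60% and 2.57%. The lowest i3CBEc library thus stood above the highest NCdel library, and the groups did not overlap. The mean was 18.9% ± 1.16 (SD, n = 3) in i3CBEc and 2.57% ± 0.837 (n = 6) in NCdel, 7.34-fold higher, with an exact permutation p of 0.0119 (two-sided, the smallest that 84 splits allow) and 0.0179 after Benjamini-Hochberg adjustment over 3 places. In counts, 285 of 1503 α joins were inversional in i3CBEc and 130 of 4953 in NCdel. The fold was 6.78 to 7.97 when any 1 library was left out. Without any 1 i3CBEc library the adjusted exact permutation p was 0.0536, and the call was lost. There, 28 splits allow no unadjusted exact permutation p under 0.0357, the value found. Without 1 NCdel library, 56 splits allow none under 0.0179. Here and below, a call can thus be lost after adjustment at any size of difference when 1 library is left out.

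Joins within Sμ itself, which lie close to the bait, were also more often inversional. In the μ unit (114632500 to 114664909) the inversional shares were 17.7%, 20.1% and 19.0% in i3CBEc. They were 5.85%, 10.0%, 9.92%, 13.5%, 11.5% and 12.8% in NCdel, again without overlap. The means were 19.0% ± 1.17 and 10.6% ± 2.73, 1.79-fold higher (adjusted exact permutation p = 0.0179, and 0.0536 without any 1 i3CBEc library). Outside IgH is the term used here for every junction beyond 20 kb upstream or 250 kb downstream of the bait. There the plus strand took 49.4% ± 2.09 and 50.4% ± 2.40 of joins (exact permutation p = 0.631). Of the 3 places tested, 2 passed the threshold of 0.05 (66.7%), namely the μ and α units. Joins to other chromosomes have no deletional or inversional orientation, so the values outside IgH are no control for the difference in the units.

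**Figure D1:**
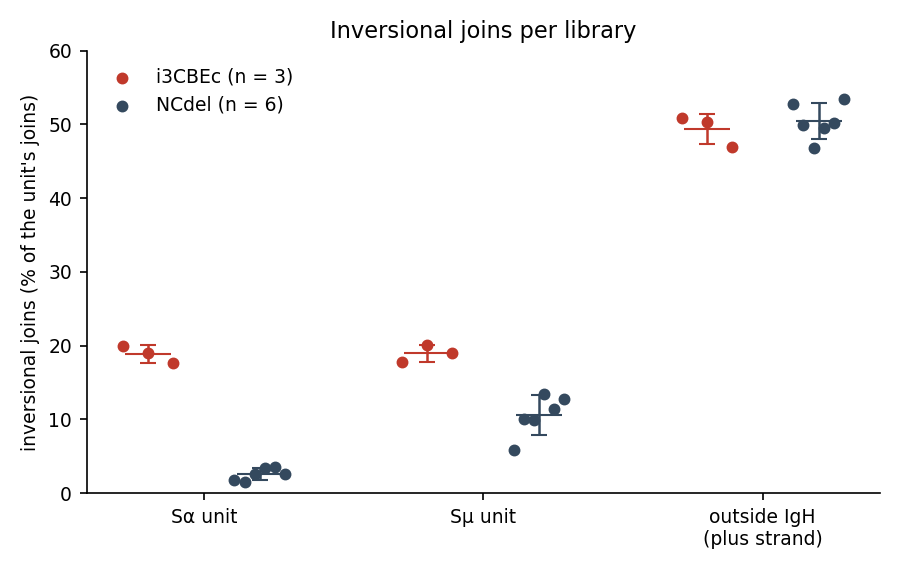
Inversional joins as a percent of the joins to Sα, to Sμ and, as plus-strand joins, outside IgH (y axis) in each library (points), with the group mean and SD (bars; i3CBEc n = 3, NCdel n = 6). In Sα the i3CBEc libraries lie between 17.6% and 19.9% and the NCdel libraries between 1.51% and 3.60%. The groups overlap outside IgH, where the strand is no control for orientation.

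As a share of all junctions, the inversional classes of α and μ were larger with the insertion, and the deletional classes did not pass the test. Inversional α joins took 7.41% ± 0.655 of i3CBEc libraries and 1.12% ± 0.459 of NCdel libraries (adjusted exact permutation p = 0.0238 over 4 classes). Inversional μ joins took 3.61% ± 0.389 and 1.79% ± 0.740 (0.0238), so that 2 of 4 classes passed (50.0%). Deletional α joins took 31.8% ± 0.456 and 42.1% ± 6.94. The highest i3CBEc library was at 32.1% and the lowest NCdel library at 32.9%, and the adjusted exact permutation p of 0.0635 missed the threshold. Deletional μ joins were at 15.4% ± 0.901 and 14.6% ± 3.38 (adjusted exact permutation p = 0.726). Both calls were lost without any 1 i3CBEc library or without NCdel library 2 or 3, each at an adjusted exact permutation p of 0.0714, and the deletional α class passed without NCdel library 4 (0.0476). This division of the classes by orientation, and those along Sα and Sμ below, were chosen after the data were seen.

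Along Sα the inversional share of i3CBEc was larger in each step towards the side that faces Sμ, from 114499000 on. In 1-kb bins from 114498000 and 114499000 it was 5.26% ± 4.84 and 4.29% ± 4.26, against 1.84% ± 2.88 and 1.44% ± 2.41 in NCdel (adjusted exact permutation p = 0.286 each). From 114500000 it was 13.2% ± 1.31, against 2.02% ± 0.908. From 114501000 it was 24.2% ± 0.925, against 3.13% ± 0.717. From 114502000 it reached 45.1% ± 7.0, against 3.37% ± 2.32, or 77 of 169 joins against 16 of 451. These last 3 bins did not overlap between the groups (adjusted exact permutation p = 0.0238 each). In NCdel the share stayed within 1.44% and 3.37% over all 5 bins.

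In Sμ the larger difference was likewise in the bin farther from the bait. From 114662000 the inversional share was 39.4% ± 4.58 in i3CBEc and 12.3% ± 5.84 in NCdel (adjusted exact permutation p = 0.0238). From 114663000 it was 18.3% ± 0.804 and 11.3% ± 3.69 (0.0571), and from 114664000, next to the bait, 11.99% ± 1.12 and 9.06% ± 3.86 (0.286). Of the 8 bins of Sα and Sμ with at least 10 joins in each library, 4 passed the threshold (50.0%), all higher in i3CBEc. The difference between bins was not tested. Without any 1 i3CBEc library the same 4 bins had adjusted exact permutation p of 0.0571 to 0.0714, and without NCdel library 6 the bin from 114663000 also passed (0.0286).

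**Figure D2:**
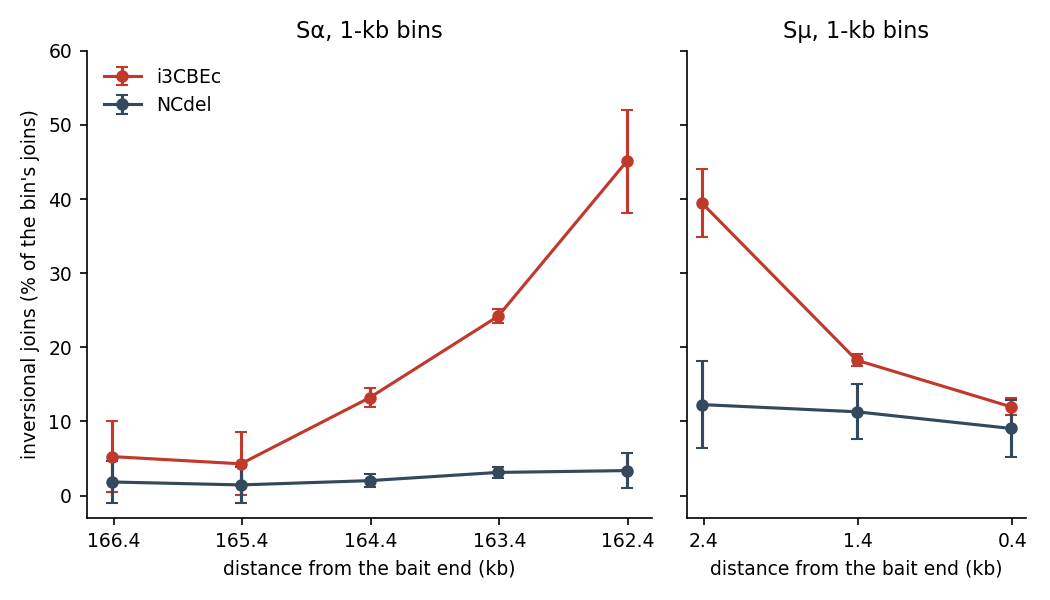
Inversional joins as a percent of the joins in each 1-kb bin of Sα (left) and Sμ (right), against the distance of the bin centre from the bait end in kb; points are means over libraries and bars the SD (i3CBEc n = 3, NCdel n = 6). In i3CBEc the share reaches 45.1% in the Sα bin nearest to Sμ and 39.4% in the Sμ bin farthest from the bait, while the NCdel line stays at or below 3.37% in Sα and 12.3% in Sμ.

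Between the groups, the joins of each orientation lay at different places within Sα. The medians below describe the same joins as the bins above and are no separate evidence. Library medians of deletional α joins averaged 114500615 in i3CBEc (114500595 to 114500628) and 114500862 in NCdel (114500778 to 114500944). The difference of -247 bases, away from Sμ, was larger than the spread of the medians, which was 17.8 and 52.8 bases (SD). Library medians of inversional α joins averaged 114501363 in i3CBEc (114501317 to 114501400) and 114501110 in NCdel (114500946 to 114501242), a difference of 253 bases towards Sμ. In Sμ, inversional medians differed by -211 bases, with means of 114663285 and 114663496. Each of these 3 had an adjusted exact permutation p of 0.0317 and no overlap, and deletional μ medians differed by 78.5 bases (0.155), so that 3 of 4 medians passed (75.0%). NCdel libraries hold only 11 to 31 inversional α joins each, which limits their medians. All 3 calls were lost without any 1 i3CBEc library (adjusted exact permutation p of 0.0714 to 0.143).

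With both orientations pooled, no measure of position passed. The median α position differed by -69.8 bases (adjusted exact permutation p = 0.310), and the interquartile range was 1219 ± 48.3 bases in i3CBEc and 1132 ± 44.1 in NCdel (0.143, without overlap). Of 6 such measures 0 passed (0.0%), and 1 had groups without overlap (16.7%). That 1, the interquartile range of α, also had the only unadjusted exact permutation p under 0.05, at 0.0238. The Sα block of dense AGCT (114497000 to 114503999) held 98.6% ± 0.655 and 99.1% ± 0.322 of α joins, and the Sμ block (114661000 to 114663999) 66.5% ± 0.458 and 69.3% ± 4.26 of μ joins. The blocks were drawn where reads of these libraries lay, so a high share inside a block is in part a matter of definition. In bins of 500 bases, limma called 0 of 22 for the share of a unit's joins (0.0%), with 6 at an unadjusted p under 0.05. It called 2 without i3CBEc library 3 and 1 without NCdel library 5.

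**Figure D3:**
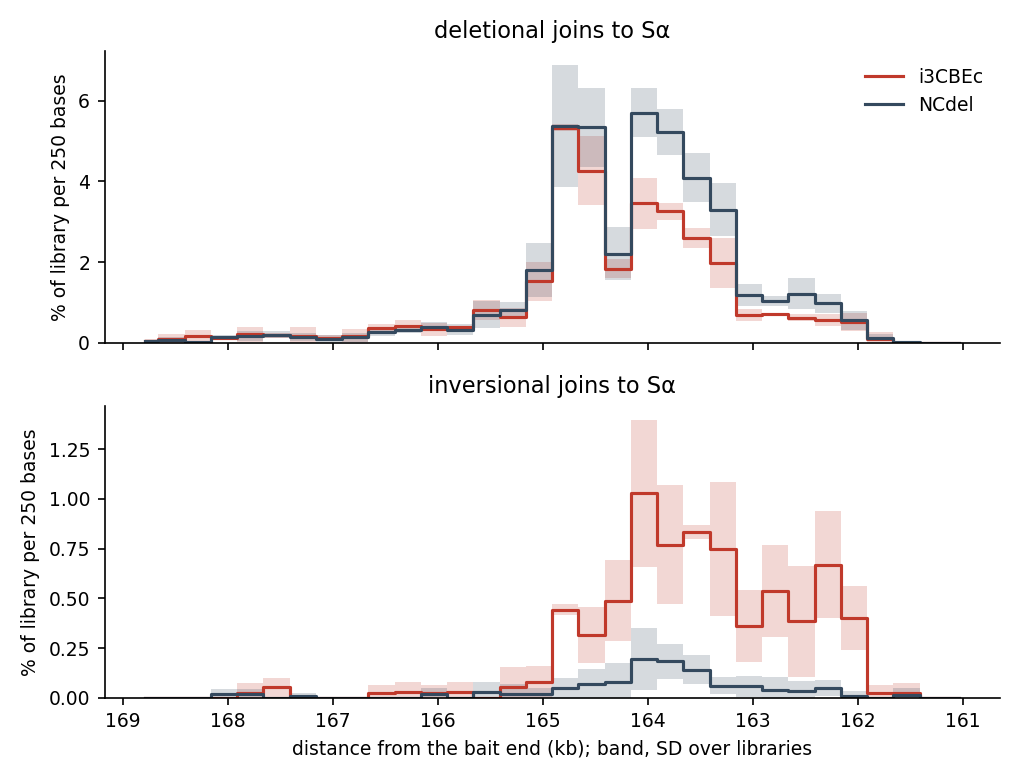
Deletional (top) and inversional (bottom) joins to Sα as a percent of the library per 250 bases (y axes differ), against distance from the bait end in kb; lines are means over libraries and bands the SD (i3CBEc n = 3, NCdel n = 6). Deletional joins of i3CBEc lie below those of NCdel mainly on the side nearer to Sμ, where the inversional joins of i3CBEc lie above; the mean library medians of i3CBEc are 114500615 and 114501363.

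The inversional α joins of i3CBEc were spread over many sites, and their alignments had about as many mismatches as the deletional ones. The 285 joins stood at 267 positions, with at most 2 joins at 1 position. Their preys had 0.706 mismatches per 100 aligned bases, against 0.657 for the 1218 deletional joins. Of the reads, 1.40% had an alignment gap, against 1.64%. In NCdel the α values were higher in both orientations, with 1.06 mismatches for inversional and 0.833 for deletional preys. There 3.08% of inversional and 3.55% of deletional reads had a gap. In μ the inversional preys of i3CBEc had more of both than the deletional ones, with 4.84 against 3.77 mismatches per 100 bases and 23.2% against 16.2% of reads with a gap. In NCdel the μ values were 4.75 against 4.29 mismatches and 27.0% against 23.5% with a gap. None of these differences was tested. By length of prey, 17.4% of α joins were inversional with up to 50 bases, 19.3% with more than 50 and up to 100, 18.4% with more than 100 and up to 150 and 20.1% with over 150. In NCdel these shares were 2.87%, 2.95%, 1.89% and 2.81%. The inversional share was thus higher in i3CBEc in each class of length. With preys of at most 100 bases and of over 100 bases taken apart, the α difference was 15.7 and 16.8 percentage points (adjusted exact permutation p = 0.0179 and 0.0357). Within NCdel, the mean inversional α share was 1.95% in run 490, 3.08% in run 451 and 3.41% in run 371, all below the lowest i3CBEc library.

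Other genotypes give values beside these. In i3CBEc-3CBEdel, cells with the same insertion but without the 3′CBEs, 19.7% ± 0.990 (n = 3) of 2262 α joins were inversional, as were 22.5% ± 5.87 of μ joins. These libraries came from 3 further runs (412, 426 and 438). Whether these cells descend from the same clone as the i3CBEc cells was not examined, so their values do not tell genotype and clone apart. In the Iα-deleted line with the insertion, 10.7% ± 1.14 (n = 3) of μ joins were inversional, close to the 10.6% ± 2.73 of NCdel. In the Iα-deleted line without it, the share was 9.49% ± 2.02 (n = 6). These lines held 16 and 17 α joins in all, of which 2 were inversional in each. Whether the insertion acts on μ joins differently with and without Iα was not tested.

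The choice of acceptor differed in small classes on both sides of the 99-base step. The stretch between Sγ2a and Sε (114516000 to 114527999), which includes the interval taken as the place of the insertion, took 13, 17 and 6 junctions in i3CBEc. It took 0 in all 6 NCdel libraries, which allows a share of up to 0.0259% of their pooled junctions. For single NCdel libraries the upper limits of the 95% Wilson intervals were 0.159% to 0.236%. The i3CBEc shares were 0.935% (95% Wilson interval 0.547 to 1.59), 1.35% (0.846 to 2.16) and 0.508% (0.233 to 1.10). Intervals and limits cover counting error only, because amplified reads that carry no molecular identifier need not stand for separate molecules. ε, the next acceptor towards α, took 4, 2 and 10 junctions in i3CBEc, and NCdel libraries took 1, 0, 0, 0, 2 and 1. γ2b, on the μ side, took 1, 0 and 0, against 2, 2, 5, 3, 2 and 5. For single libraries these counts are too small to set γ2b apart: the Wilson intervals of i3CBEc reach up to 0.406%, 0.305% and 0.324%, above every NCdel share (0.106% to 0.265%). For ε the interval of i3CBEc library 2 (0.044% to 0.578%) overlaps that of NCdel library 5 (0.033% to 0.441%). The library shares of the groups did not overlap in any of the 3, and each had an adjusted exact permutation p of 0.0397 over 10 regions, so that 3 of 10 passed (30.0%). The calls were lost without any 1 library but NCdel library 2, with adjusted values of the exact permutation p between 0.0595 and 0.179.

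Further acceptors on the μ side were nearly empty in i3CBEc. γ1 held 0 junctions in i3CBEc and 4, 1, 3, 3, 4 and 3 in NCdel (adjusted exact permutation p = 0.0595). It passed without NCdel library 2 (0.0446), as a share of junctions inside the window (0.0298), and without junctions within 10 kb of the bait or with deletional joins only (0.0397 each). γ3 held 0, 1 and 0 against 4, 7, 3, 5, 12 and 21 (0.143). Both were without overlap, as were 5 of 10 regions (50.0%), but neither γ1 nor γ3 passed the test on all junctions. γ2a, which adjoins the stretch, held 2, 1 and 0 against 0, 0, 1, 0, 0 and 2 (0.370), and the region downstream of α 7, 8 and 1 against 4, 1, 2, 3, 9 and 8 (0.370). Upstream of the bait the shares were 1.64% ± 0.387 and 1.495% ± 0.288 (0.560).

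α remained the main acceptor, with 557, 498 and 448 junctions in i3CBEc. The shares of 40.04%, 39.6% and 38.0% lay within those of NCdel, which ran from 34.0% to 52.3% with a median of 41.3%. Shares of all junctions also move with the junctions outside IgH. These took 23.2% and 24.1% of NCdel libraries 5 and 6 (run 451) and 43.2% to 49.6% of the other NCdel libraries. In i3CBEc they took 35.9% to 41.1%. As a percent of junctions inside the window, in place of all junctions, the α share differed by -6.07 percentage points and passed (adjusted exact permutation p = 0.0298). Shares of the window also move with the joins to the μ unit near the bait. These took 19.0% ± 1.21 of all junctions in i3CBEc and 16.4% ± 4.03 in NCdel (adjusted exact permutation p = 0.370). Of the junctions in acceptor regions, α made up 96.3% ± 0.340 in i3CBEc and 98.2% ± 0.611 in NCdel, without overlap (adjusted exact permutation p = 0.0357 over 3 totals, of which 1 passed, or 33.3%). This call was lost without any 1 of the 9 libraries (0.0536 to 0.107). The acceptor regions counted here include the stretch, with 36 junctions in i3CBEc and 0 in NCdel. The lower α share is therefore not separate from the stretch result, and the share without the stretch was not tested.

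**Figure D4:**
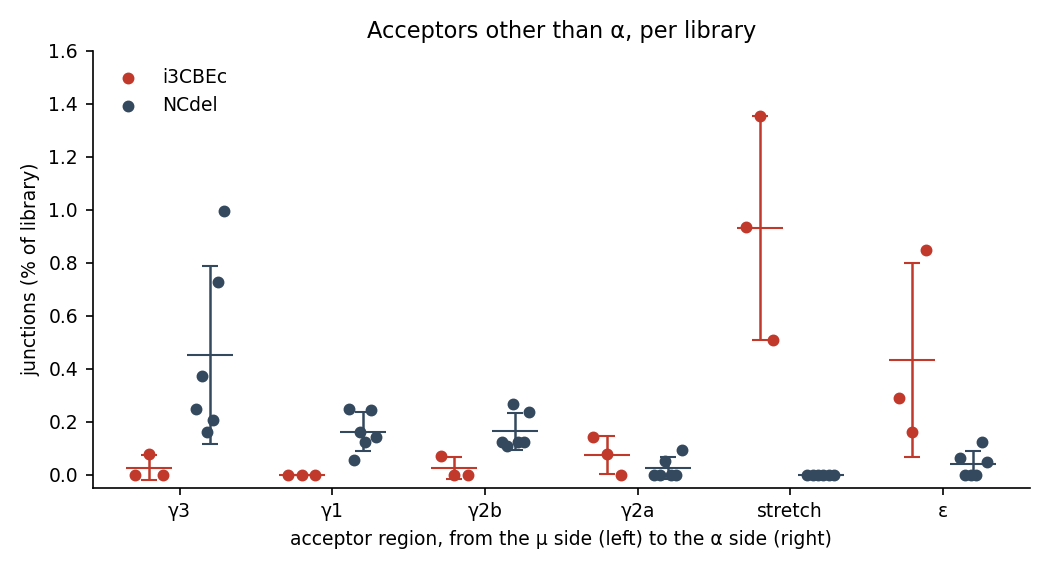
Junctions in each acceptor other than α as a percent of the library (y axis), by region from the μ side to the α side; points are libraries, bars the mean and SD (i3CBEc n = 3, NCdel n = 6). The stretch and ε lie higher in i3CBEc, at 0.932% and 0.431% on average, while γ3, γ1 and γ2b lie near 0 there.

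Joins in the stretch were scattered rather than placed at 1 site. The 36 joins stood at 36 positions from 114516993 to 114526901, with a median of 114521585 and quartiles at 114521009 and 114521904. By deposited position, 18 of them were on the α side of the interval of the 99-base step, 17 inside it and 1, the join given here at 114526901 after its position was lowered, on its μ side. Positions within the interval may be off by up to 99 bases. In orientation 20 were deletional and 16 inversional, or 44.4% inversional. Microhomology was present in 21, 10 were direct, and 5 had an insertion of at most 2 bases. AGCT stood in the first 10 prey bases of 2 of the 36. The 16 ε joins of i3CBEc also stood at 16 positions, all in the Sε block (114513000 to 114515999), with 12 deletional and 4 inversional, and the 4 of NCdel were all deletional. No position of the stretch or of ε held more than 1 join in i3CBEc.

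In 1-kb bins of the whole window, limma called 1 of 19 bins (5.26%), the bin from 114521000 in the stretch. It held 19 junctions in i3CBEc and 0 in NCdel, with a log2 fold change of 4.56 (SE 0.28). NCdel is at 0 in every library there, so the fold change depends on the pseudocount of 0.02%, and NCdel adds no spread to the SE. The bin also passed the minimum of 10 junctions only through i3CBEc, so that its call is no support beyond the counts. With the same limits, the bin was called without any 1 library too. The number called was 2 without i3CBEc library 3, NCdel library 2 or NCdel library 3. No bin was called lower on all libraries.

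The single positions with the highest mean of the 2 group shares held joins of both groups, which this ranking favours. Of the positions named, 1 in Sμ held few in i3CBEc. A position with 15 deletional α joins in NCdel, more than any named Sα position held there, is not among them. At 114663584, amid 6 AGCT motifs in its window, i3CBEc libraries had 0, 1 and 1 joins and NCdel libraries 3, 7, 4, 4, 4 and 6. This was 0.290% ± 0.254 of μ joins against 1.51% ± 0.453. The positions were chosen by their use in these libraries, so no test was made. Those at 114663269 and 114664815 held 5 and 6 joins in i3CBEc and 12 and 10 in NCdel. The position 114664815 belongs to the μ unit but lies within the bait (114664780 to 114664909) and outside the Sμ block. In Sα, 114500066 held 5 and 14, 114501235 held 4 and 12, 114500178 held 4 and 11, and 114500457 held 3 and 13. At 114500256 there were 7 joins in i3CBEc (1, 4 and 2) and 4 in NCdel (0, 2, 0, 0, 0 and 2). None of the joins at these 5 positions of Sα was inversional in either group.

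No class of join structure passed the test. Direct joins made up 20.6% ± 3.54 of α joins in i3CBEc and 21.6% ± 2.00 in NCdel. Microhomology of 1 base was found in 18.9% ± 2.06 and 19.2% ± 0.762, of 2 bases in 16.2% ± 1.57 and 15.4% ± 1.13, of 3 bases in 10.4% ± 0.70 and 10.8% ± 1.19, and of at least 4 in 12.04% ± 0.954 and 11.5% ± 0.642. Mean microhomology was 2.38 ± 0.022 bases in i3CBEc and 2.38 ± 0.051 in NCdel. For μ joins it was 2.60 ± 0.120 and 2.57 ± 0.067. None of 27 classes and means in α, μ and outside passed (0.0%), 1 had groups without overlap (3.7%), and 2 had an unadjusted exact permutation p under 0.05. These were μ joins with 3 bases of microhomology (7.87% ± 0.612 against 9.93% ± 1.11) and with insertions of at least 3 bases (15.8% ± 0.070 against 18.0% ± 1.70, without overlap), both with an adjusted exact permutation p of 0.643.

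**Figure D5:**
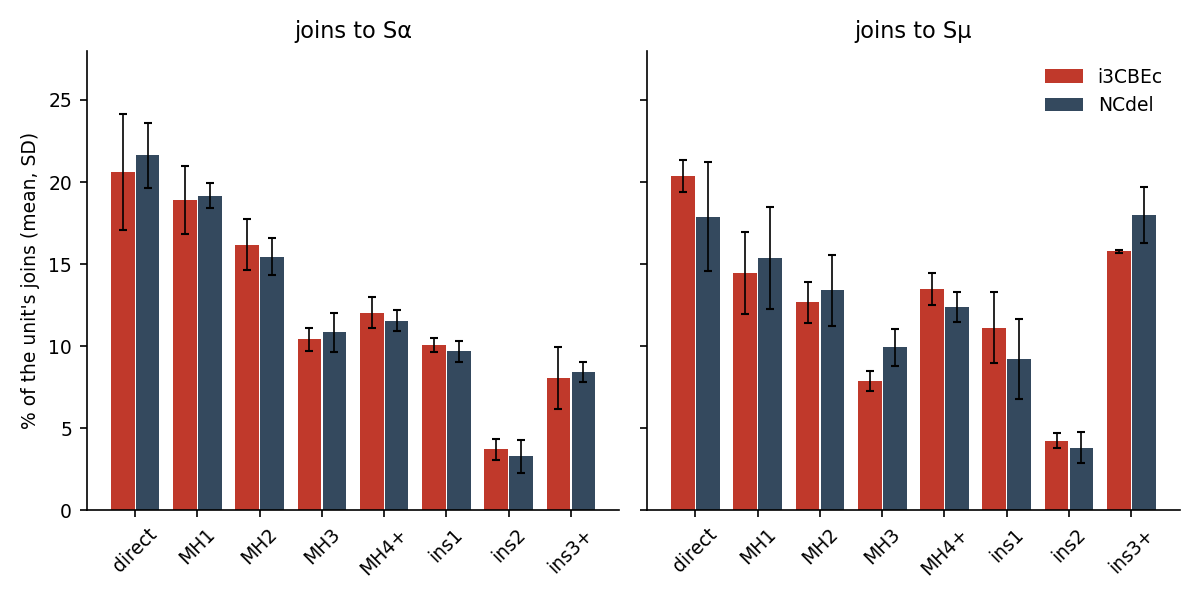
Classes of joins to Sα (left) and Sμ (right) as a percent of the unit's joins; bars are means over libraries from 0 and error bars the SD (i3CBEc n = 3, NCdel n = 6), with MH for bases of microhomology and ins for inserted bases. The bars of both groups lie within their SD of each other for most classes, as for direct α joins at 20.6% and 21.6%.

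Orientation and class could be read together for α. In i3CBEc the inversional share was lowest among direct joins, at 16.3%, and highest among those with at least 4 bases of microhomology, at 26.1%. In NCdel the classes ran from 0.964% with insertions of at least 3 bases to 3.72% with 3 bases of microhomology. The difference between i3CBEc and NCdel was thus present in each of the 8 classes. Microhomology of any length was found in 60.4% of the inversional and 56.8% of the deletional α joins of i3CBEc, and in 63.1% and 57.0% in NCdel. These are shares of pooled joins and were not tested.

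Neither the sequence at the break nor the bait side passed a test. AGCT stood within the first 10 prey bases of 25.5% ± 1.84 and 26.3% ± 1.52 of α joins, of 46.3% ± 1.37 and 46.3% ± 3.03 of μ joins, and of 6.47% ± 0.923 and 5.85% ± 0.848 of joins outside IgH, in i3CBEc and NCdel. None of the 3 passed (0.0%, lowest exact permutation p = 0.405). Library medians of the bait end of the join differed by at most 0.5 bases in the 3 places (0.0% passed, lowest exact permutation p = 0.75).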

How the data were processed

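The data are the authors' deposited junction tables of 21 CSR-HTGTS-seq libraries, of which 9 enter the tests. Positions are in bases of mm9. That build and Bowtie2 are named in the submitters' processing notes, and its version is not given in the sources used here. Values are not normalised. No deposited line carries a filter flag or molecular identifier, and junctions that repeat another's prey position, orientation and bait end (0.477% to 0.946% of a library) were kept. In i3CBEc files, positions from 114526902 on were lowered by 99 bases to undo a shift that shared words of 40 bases showed against the other libraries. Of the words, 14460 stood at the same position, 8859 were shifted and 700 had another offset.

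No mm9 annotation was at hand. Switch blocks were 1-kb bins of which reads cover 1000 bases or more with 1 or more AGCT per 100 bases, merged within 3 kb. Their names follow the constant-gene order of another build. Microhomology or insertion length is the overlap or gap of the bait and prey alignments on the read.

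Group means of library values were compared by exact permutation, two-sided (84 splits), with Benjamini-Hochberg adjustment within each family of measures, and bins by limma 3.58.1 (R 4.3.3) on log2(percent + pseudocount), with 0.02% of the library or 0.5% of the unit. Python 3.11.15 was used, and the scripts were checked on simulated tables. In a simulated table of 19 bins, limma called all 5 raised bins but also 2 bins that were not raised. It called 0 in a table without raised bins. Regions needed at least 20 joins in each library for a strand test. A fold is a ratio of group means. Named features were all 10 regions, bins called by limma, the 5 positions of Sα and 3 of Sμ with the highest mean share, and positions of the stretch and ε with several joins. The members, regions and measures were chosen with earlier results of these data known.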

Additional observations from a re-analysis of the deposited data

Results flagged for a closer look

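Within the 6 NCdel libraries, 71 values were checked for a single library far from the others, a check that chance alone meets in about 1 in 20 groups, and 2 were met, both by library 5. Among its joins outside IgH, 1.57% had an insertion of 1 base, and the NCdel mean was 0.879% ± 0.363 (n = 6). In the Sα bin from 114499000, 6.17% of its joins were inversional, against an NCdel mean of 1.44% ± 2.41. No library of NCdel stood apart in the inversional share of all α joins, and without library 5 that share was 2.37% ± 0.750.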

How the results depend on the processing

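Every difference reported above as passing the threshold kept its direction under each alternative run. Leaving out 1 library gave differences, i3CBEc minus NCdel, of -16.9 to -15.8 percentage points in the deletional share of α joins and -8.97 to -7.42 in that of μ joins. The stretch ran from 0.722 to 1.14, ε from 0.185 to 0.529 and γ2b from -0.163 to -0.118, the deletional α median from -264 to -231 bases and the inversional one from 219.9 to 279. With NCdel libraries 1 to 3 only, where 20 splits allow no exact permutation p under 0.1, the values were -16.9 and -10.4, 0.932, 0.411 and -0.141, and -244 and 173 bases, in the same order. With libraries 4 to 6 only they were -15.7 and -6.37, 0.932, 0.375 and -0.137, and -250 and 333 bases. γ2b was also lost without junctions within 10 kb of the bait (-0.169) and with deletional joins only (-0.136), and α was called as a share of the window (-6.07). With preys of at most 100 bases the medians differed by -170 and 417 bases and were lost, as with longer preys (-355 and 300.5). Called 1-kb bins, 1 as reported, were 1 to 2 without 1 library, 2 with either NCdel subset, 2 with a pseudocount of 0.1%, 4 without the filter, 0 with a minimum of 20 junctions, 3 with bins of 500 bases and 4 with a fit of all 5 groups. Called 500-base bins of the units, 0 as reported, were 0 to 2 without 1 library, 4 with a pseudocount of 2% and 4 with deletional joins only. The cause was not tested.

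Differences that missed the threshold as reported also missed it where they changed sign. Without 1 library, the upstream share ran from -0.037 to 0.347 and the minus-strand share outside IgH from -0.148 to 1.77 percentage points. Direct α joins ran from -2.12 to 1.02, α microhomology of 1 base from -1.19 to 0.842 and of 2 bases from -0.130 to 1.37 percentage points. Mean microhomology ran from -0.014 to 0.017 bases in α and from -0.025 to 0.095 in μ, and AGCT in the first 10 prey bases from -1.51 to 0.226 percentage points in α and from -0.941 to 0.891 in μ. NCdel libraries 1 to 3 gave -0.078 upstream, 0.0066 and 0.154 for 1 and 3 bases of α microhomology and -0.0033 for its mean. Libraries 4 to 6 gave -0.060 for the μ share, -1.29 for deletional μ joins and 0.521 for direct α joins. Deletional joins only gave 0.175 and -0.560 for α microhomology of 1 and at least 4 bases, -0.057 and -0.059 for its mean in α and μ, and -20.2 bases for the α interquartile range. The μ share was -0.060 without junctions within 10 kb of the bait, and the motif shares were 0.0030 in μ with repeats collapsed and 0.702 in α over the first 20 bases.

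Replicate numbers do not pair the libraries, since same-numbered i3CBEc and NCdel libraries had correlations of 0.331, 0.248 and -0.081. With the replicate block over numbers 1 to 3 the stretch differed by 0.932, ε by 0.411 and γ2b by -0.141. All 3 calls were lost at an exact sign-flip p of 0.25, the smallest that 3 pairs allow. The upstream share differed by -0.078, and 1 bin was called. Depth limits the small acceptors, since 3 junctions of an i3CBEc library are 0.216% to 0.254%.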
